A study of Rattus norvegicus with 6 samples.

Results

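The genes described here are 37 ribosome biogenesis factors. They were chosen by gene symbol from knowledge of the pathway, with earlier results of these data known. Each was looked up by name among the 33589 rows of the deposited gene table and found as a single row. PolyA RNA was sequenced from mesenchymal stem cells (MSCs) of rat bone marrow, the precursors of bone, cartilage and fat cells, after 48 h in a gel named SA hydrogel. The stiff gel (18 kPa, 3 libraries) was set against the soft gel (2 kPa, 3 libraries), and all cells were grown in low glucose medium with serum and taken out of the gel before a library kit for single-cell amounts of RNA was used. The labels do not tell whether replicates are separate animals or cultures. The p-values therefore cover the spread among these libraries alone, which may be technical.

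A ribosome is built in the nucleolus. RNA polymerase I transcribes one long precursor RNA, small nucleolar ribonucleoproteins (snoRNPs) modify and help to cut it, and a large number of assembly factors join it to ribosomal proteins before the small and the large subunit leave the nucleus. The demand for ribosomes grows with cell growth and division, and many of the assembly factor genes are textbook targets of the transcription factor MYC. The 37 genes were ordered by role into 7 sets: RNA polymerase I transcription (4 genes), abundant nucleolar phosphoproteins (3), the box C/D snoRNP (3), the box H/ACA snoRNP (4), the small subunit (9), the PeBoW complex of large subunit assembly (3) and other large subunit factors (11).

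Reads recovered from the table came to between 14966354 and 16711527 per library. The first principal component, with 30.2% of the variance, parted stiff from soft libraries, and soft replicate 1 stood farthest out on it (-20.9, against -8.22 and -7.98 in the other soft libraries and 10.3 to 14.2 in the stiff ones). Of 15 stromal markers, 14 were above the level filter used here, and Lepr was below it. By group mean they were led by Lum, which encodes lumican. They summed to between 11441.9 and 12060.8 FPKM in stiff libraries and between 10308.2 and 11075.4 FPKM in soft ones. By limma 1 of the 14 tested, Vim, was called higher in stiff gel, where 1.01% of all genes tested were. It averaged 2012.5 ± 51.5 FPKM in stiff and 1571.5 ± 78.2 FPKM in soft gel (SD, n = 3 each, limma adjusted p = 0.0246). Leukocyte markers were present too, summing to between 385.6 and 413.9 FPKM in stiff libraries and between 437.6 and 442.2 FPKM in soft ones. FPKM are fragments scaled to gene length and to library depth, so levels can be compared between genes. Of 12 leukocyte markers tested, Cd68 and Cd53 were lower in stiff gel and Adgre1 was higher by limma; with equal FPKM sums no leukocyte marker was called higher and 3 were called lower. The T cell marker Cd3e was at 0 in every library and the pan-leukocyte marker Ptprc was between 2.15 and 3.18 FPKM. What part leukocyte RNA has in the values below was not tested.

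Ribosome biogenesis genes were expressed in both gels, and none of the 35 that could be tested passed the test between stiff and soft. Together the 37 genes summed to 854.4, 888.2 and 884.1 FPKM in stiff libraries and to 794.9, 847.1 and 837.2 FPKM in soft ones. The stiff sums lay above the soft sums, but so did the FPKM sums of the whole libraries, at 467371.7 to 478304.1 in stiff and 452786.6 to 457305.9 in soft gel. As a share of that library sum the members made up 0.1828%, 0.1894% and 0.1848% in stiff libraries and 0.1756%, 0.1854% and 0.1831% in soft ones, and the groups overlapped. Without the abundant Npm1 and Ncl the shares were 0.1193%, 0.1184% and 0.12% in stiff libraries and 0.1213%, 0.1168% and 0.1189% in soft ones, with soft replicate 1 the highest of the 6. Npm1 and Ncl held 29.0 of the 49.2 FPKM between the mean sums of the gels, and 9.8 of 33.4 FPKM without soft replicate 1. In bulk RNA, fewer cells of a type and less RNA per cell cannot be told apart, which holds for every value here.

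Levels differed far more between the genes than between the gels. Npm1, which encodes the nucleolar histone chaperone nucleophosmin, was the most abundant with a mean of 174.3 FPKM over the 6 libraries, followed by Ncl (nucleolin) at 124.5 FPKM. Dkc1 (48.6 FPKM), Nop10 (38.0 FPKM) and Pes1 (34.8 FPKM) came next. At the lower end of the tested genes stood Utp20 at 4.51 FPKM and Polr1b at 4.25 FPKM. The reads behind the tested members ran from 134, for Gar1 in soft replicate 2, to 5613 per gene and library.

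**Figure D1:**
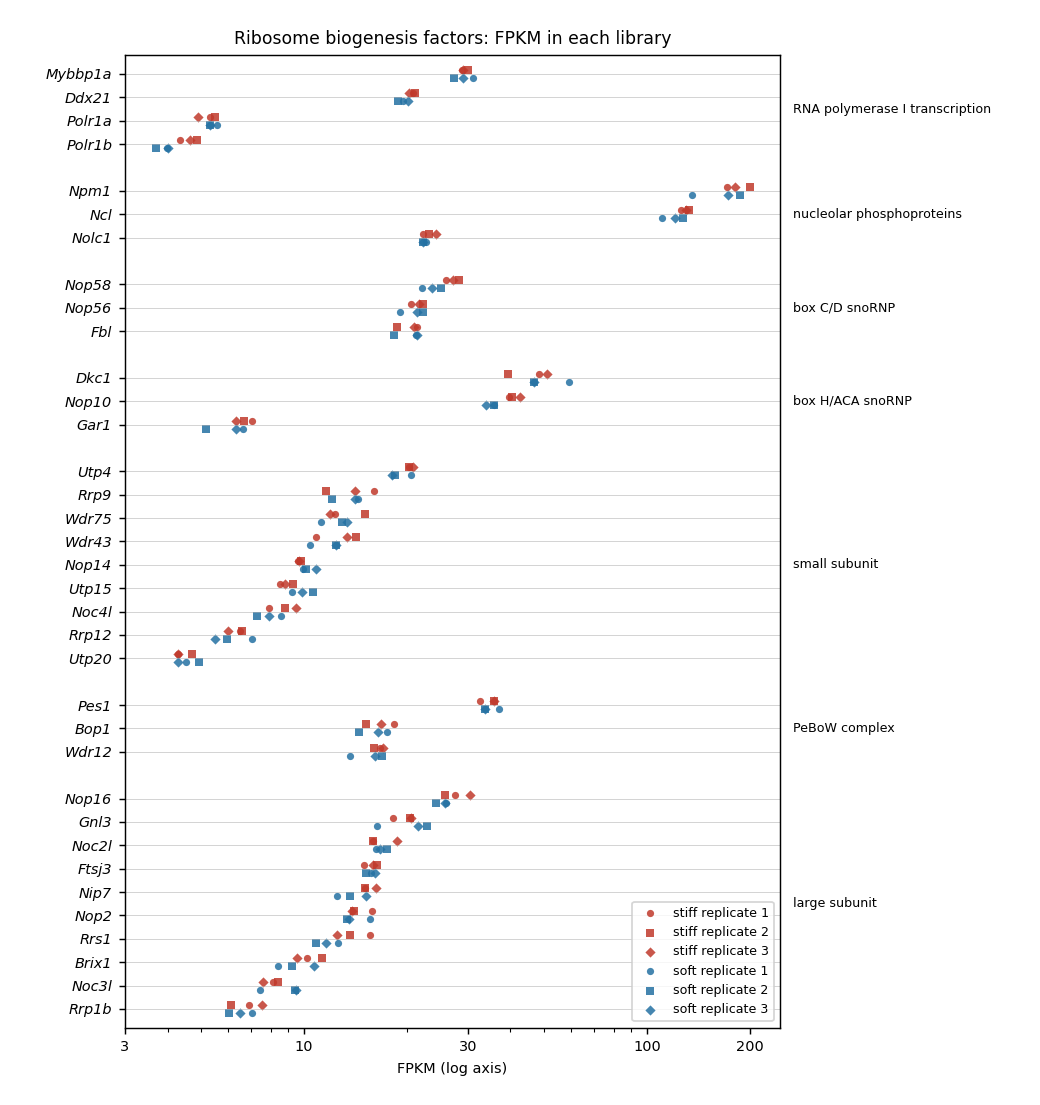
FPKM of the 35 tested ribosome biogenesis genes in each library on a log axis, ordered by role; for each gene the 3 stiff libraries are drawn above the 3 soft ones. Npm1 and Ncl lie above 100 FPKM and the other members between 3.7 and 59.2 FPKM, and for 30 of the 35 genes the points of the gels overlap.

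Nhp2 and Ebna1bp2 were under the level filter of a mean of 1 FPKM and were not tested. Nhp2, a core protein of the box H/ACA snoRNP, was at 0.504, 0.557 and 0.538 FPKM in stiff gel and at 0.894, 0.458 and 0.185 FPKM in soft gel, which is between 2 and 10 reads per library. Ebna1bp2, a large subunit assembly factor, had 3 reads at most in any library and was listed at 0 in 3 of the 6. Both are known as genes that dividing cells use, and whether these rows miss reads that went elsewhere was not tested. A row annotated as NHP2-like, LOC100359574, was at 3.82, 2.56 and 7.10 FPKM in stiff and 3.85, 4.42 and 4.29 FPKM in soft libraries.

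Stiff was compared with soft by limma on log2(FPKM + 1) over the 12713 genes that averaged 1 FPKM or more, with Benjamini-Hochberg adjustment over all of them. An adjusted p under 0.05 was reached by 1.43% of these genes, 1.01% with the higher level in stiff gel and 0.425% with the lower one, and by 0 of 35 members, with a smallest adjusted p of 0.133 for Nop10. At an unadjusted p under 0.05, 4 members were higher in stiff gel (11.4%, against 8.46% of all genes tested), namely Nop10, Nop58, Rrs1 and Polr1b, and none was lower (6.95% of all genes tested). By limma-voom on the recovered reads 0 members passed and the same number, 4, were higher at an unadjusted p under 0.05. With the libraries weighted by their quality, Nop10 alone passed (0.24, limma adjusted p = 0.0317), in a fit in which 5.39% of all genes did. In that fit 22 of 35 members lay above 0, against 49.8% of all genes. In 4 members (11.4%) all stiff libraries lay above all soft ones, where 11.7% of all genes tested did, and in 1 member (2.86%) all stiff libraries lay below, where 10.9% did, or 5 of 35 in either direction against 22.6%.

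The differences were small, and their errors bound them. The members' median was 0.057 on the log2 scale, against 0.0013 over all genes tested, and 27 of 35 (77.1%) lay above 0, against 50.4% of all genes. With each library's FPKM scaled to the same sum, the median was 0.012 against -0.042 and 18 of 35 (51.4%) lay above 0, against 38.6%. At those equal sums 0 members passed, where 1.23% of all genes did; at an unadjusted p under 0.05 Nop10 was higher, where 5.41% of all genes were, and Utp15 lower, where 10.8% were. Without soft replicate 1 the median was 0.052 against -0.0019 and 25 of 35 lay above 0, against 49.4% of all genes. The 95% intervals of the 35 differences reached from -0.43 (Dkc1) to 0.46 (Rrs1), so all 35 lay inside a 1.5-fold change (0.58 on the log2 scale) in either direction. The median size of a member's difference was 0.0881, where that of all genes tested was 0.0991.

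**Figure D2:**
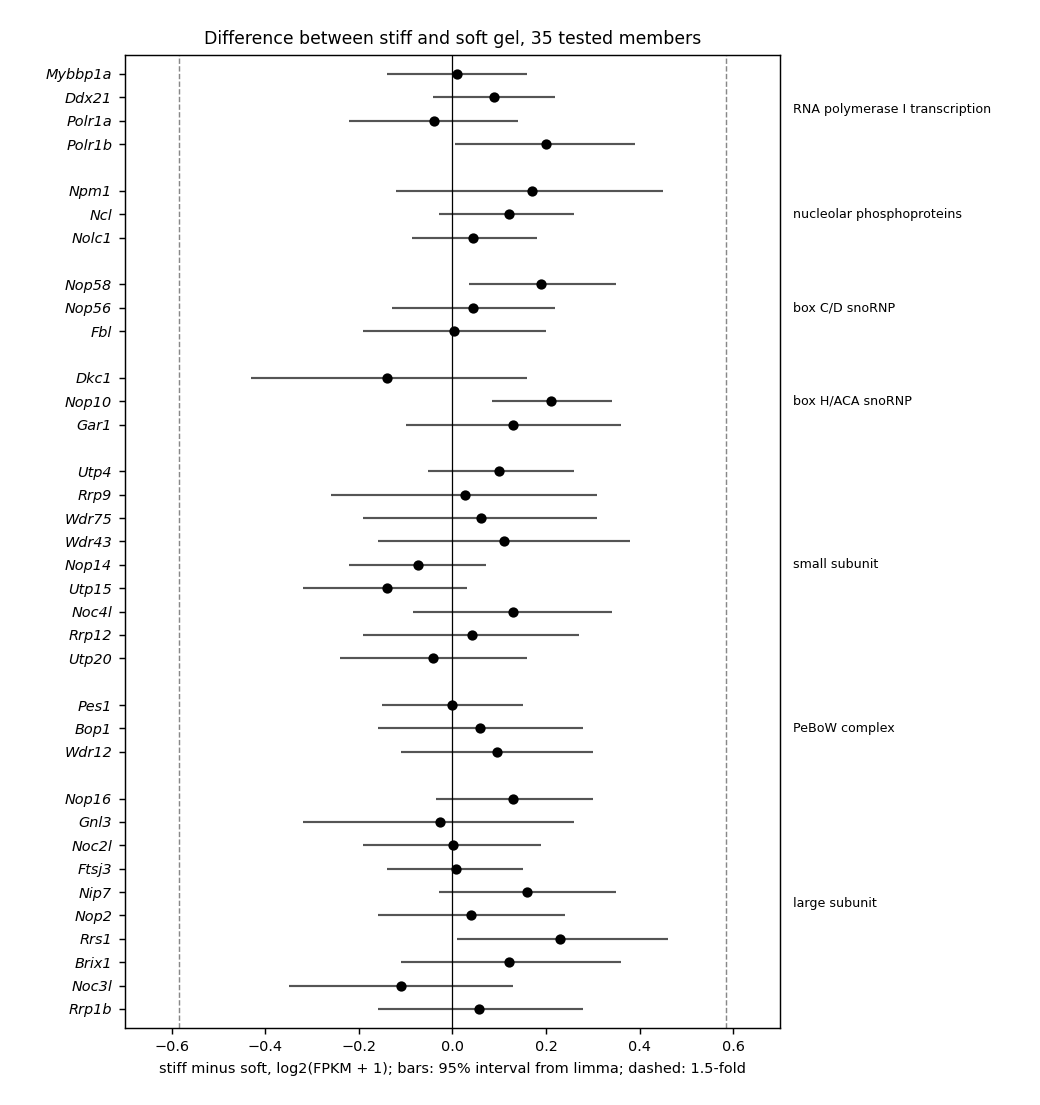
Stiff minus soft difference of each of the 35 tested members on the log2(FPKM + 1) scale, by role. Points are limma estimates, bars their 95% intervals and dashed lines a 1.5-fold change; all intervals stay between the dashed lines, and those of Nop10, Nop58, Rrs1 and Polr1b do not reach 0.

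RNA polymerase I makes the ribosomal RNA precursor. Its second-largest subunit gene, Polr1b, was at 4.34, 4.87 and 4.64 FPKM in stiff libraries and at 3.98, 3.70 and 4 FPKM in soft ones. The groups did not overlap, and the difference was 0.20 (SE 0.082; limma adjusted p = 0.310). Polr1a, the largest subunit gene, averaged 5.24 ± 0.310 FPKM in stiff and 5.4 ± 0.150 FPKM in soft gel (SD, n = 3 each). Its difference was -0.039, and turned to 0.0014 without stiff replicate 3 and to 0.0056 with the length trend removed. Mybbp1a, a nucleolar protein of Pol I regulation, was the most abundant of this set, at 28.9, 30.1 and 29.0 FPKM in stiff and 31.1, 27.4 and 29.0 FPKM in soft libraries, with full overlap. Ddx21, an RNA helicase that joins rRNA transcription to its processing, was at 20.8, 21.1 and 20.3 FPKM in stiff and 19.4, 18.8 and 20.1 FPKM in soft libraries. Its stiff libraries all lay above the soft ones by a narrow margin (0.088, SE 0.056; limma adjusted p = 0.5).

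Of the nucleolar phosphoproteins, Npm1 was at 171.1, 200.2 and 180.3 FPKM in stiff libraries and at 135.0, 186.3 and 172.9 FPKM in soft ones. The groups overlapped, and soft replicate 1 was the lowest of the 6. The difference was 0.17 (SE 0.12; limma adjusted p = 0.558), and 0.032 without soft replicate 1. Ncl, which binds the precursor RNA and rRNA gene chromatin, was at 125.8, 132.6 and 129.9 FPKM in stiff and 110.9, 127.1 and 120.6 FPKM in soft libraries, where soft replicate 1 was again the lowest and soft replicate 2 overlapped the stiff range (0.12, SE 0.062; limma adjusted p = 0.429; 0.063 without soft replicate 1). Nolc1, a chaperone of snoRNPs, averaged 23.2 ± 0.961 FPKM in stiff and 22.5 ± 0.204 FPKM in soft gel (SD, n = 3 each; difference 0.044). All 3 had values above 0 without passing the test.

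The box C/D snoRNP places ribose methyl groups on rRNA. Nop58, a core scaffold protein, was at 26.0, 28.3 and 27.1 FPKM in stiff libraries and at 22.1, 25.1 and 23.6 FPKM in soft ones. The groups did not overlap, and the difference was 0.19 (SE 0.067, 95% interval 0.036 to 0.35; limma adjusted p = 0.236). Its partner Nop56 averaged 21.5 ± 0.946 FPKM in stiff and 20.8 ± 1.68 FPKM in soft gel, and the methyltransferase Fbl (fibrillarin) 20.4 ± 1.45 and 20.3 ± 1.75 FPKM in stiff and soft gel (SD, n = 3 each). These 3 proteins were thus within a narrow range of levels in both gels. Snu13, a further box C/D snoRNP gene that is not a member, averaged 70.9 FPKM in stiff and 67.3 FPKM in soft gel. Fbl overlaps Dyrk1b by 373 bases on the same strand, so reads there could be counted for either gene.

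The box H/ACA snoRNP turns uridine into pseudouridine. Nop10, its smallest core protein, was at 39.7, 40.3 and 42.6 FPKM in stiff libraries and at 35.8, 35.7 and 33.9 FPKM in soft ones. The groups did not overlap, and the difference of 0.21 (SE 0.055, 95% interval 0.084 to 0.34) had the smallest p of all members, an unadjusted 0.00563 by limma, and an adjusted p of 0.133. The table places Nop10 (ENSRNOG00000005184) on chromosome 3 from 103747654 to 103748739 in a build it does not name. Dkc1, the pseudouridine synthase dyskerin, was at 48.3, 39.3 and 51.1 FPKM in stiff libraries and at 59.2, 46.8 and 46.9 FPKM in soft ones. The groups overlapped widely, with the highest value in soft replicate 1 and the lowest in stiff replicate 2, and the difference of -0.14 (SE 0.12; limma adjusted p = 0.654) was the lowest of all members beside Utp15. It was -0.026 without soft replicate 1 and -0.027 without stiff replicate 2. Gar1 was at 6.69 ± 0.370 FPKM in stiff and 6.05 ± 0.771 FPKM in soft gel (SD, n = 3 each, limma adjusted p = 0.584). The listed values of Gar1 and Nhp2 were far below those of Dkc1 and Nop10 in both gels. Whether the Nhp2 row misses reads was not tested.

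Small subunit factors lay between 4.28 and 20.8 FPKM, with a median difference of 0.042 and 6 of 9 values above 0. Utp4, of the group of factors that bind the precursor first, was the most abundant, at 20.2, 20.3 and 20.8 FPKM in stiff and 20.5, 18.4 and 18.0 FPKM in soft libraries. Soft replicate 1 lay inside the stiff range and the other soft libraries below it. Utp15, of the same group, was at 8.51, 9.30 and 8.80 FPKM in stiff libraries and at 9.23, 10.6 and 9.89 FPKM in soft ones, with a small overlap at soft replicate 1. Its difference was -0.14 (SE 0.075; limma adjusted p = 0.413), of opposite sign to that of Utp4 (0.10, SE 0.066; limma adjusted p = 0.507). Nop14, a small subunit assembly factor, was the 1 member whose stiff libraries all lay below the soft ones, at 9.61, 9.81 and 9.65 FPKM against 9.93, 10.1 and 10.8 FPKM in soft libraries (-0.074; limma adjusted p = 0.626). Wdr43 and Wdr75, further members of the Utp4 group, had differences of 0.11 and 0.062. Noc4l, a partner of Nop14 in yeast, had 0.13. Rrp9, a protein of the snoRNP that guides the first cuts, was the most variable of the set in stiff gel, at 16, 11.6 and 14.1 FPKM, against 14.4, 12.1 and 14.1 FPKM in soft libraries (0.026). Rrp12, which serves subunit export in yeast, had a difference of 0.042 and the large scaffold gene Utp20 one of -0.042.

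Pes1, Bop1 and Wdr12 form the PeBoW complex, which large subunit maturation needs. Pes1 was at 32.7, 35.9 and 35.8 FPKM in stiff libraries and at 37, 33.6 and 33.7 FPKM in soft ones, and both means were 34.8 FPKM (95% interval of the difference -0.15 to 0.15). Wdr12 was at 16.7, 16 and 17 FPKM in stiff and 13.6, 16.9 and 16.1 FPKM in soft libraries, with soft replicate 1 the lowest (0.095; limma adjusted p = 0.654). Without that library the difference was 0.0067. Bop1 averaged 16.8 ± 1.54 FPKM in stiff and 16.1 ± 1.48 FPKM in soft gel (SD, n = 3 each). Pes1 had the highest level of the complex in every library. Bop1 overlaps Scx on the opposite strand, a tendon transcription factor gene at 9.24, 7.04 and 10.6 FPKM in stiff and 5.31, 3.82 and 5.04 FPKM in soft libraries (0.79; limma adjusted p = 0.0672), and Mroh1 by 80 bases. The labels do not state whether counting used strand, which leaves the Bop1 value uncertain.

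Among the other large subunit factors, Rrs1, which in yeast helps to bring in the small rRNA of the large subunit, was at 15.6, 13.6 and 12.5 FPKM in stiff libraries and at 12.6, 10.8 and 11.6 FPKM in soft ones. The groups touched, stiff replicate 3 against soft replicate 1, and the difference was the highest of all members at 0.23 (SE 0.10; limma adjusted p = 0.307). Nop16, a large subunit assembly factor in yeast and the most abundant of the set, was at 27.6, 25.8 and 30.4 FPKM in stiff and 26.0, 24.3 and 25.7 FPKM in soft libraries, with overlap at stiff replicate 2 (0.13; limma adjusted p = 0.435). Noc3l, whose yeast counterpart acts in large subunit assembly, was at 8.14, 8.37 and 7.57 FPKM in stiff and 7.45, 9.44 and 9.48 FPKM in soft libraries (-0.11; limma adjusted p = 0.650). Its spread in soft gel came from soft replicate 1, and without that library its difference was -0.21. Nip7 (0.16) and Brix1 (0.12, and 0.049 without soft replicate 1), both needed for large subunit rRNA processing, had values above 0. The rRNA methyltransferase gene Nop2 (0.040), Ftsj3 (0.0068), whose yeast counterpart methylates rRNA, Noc2l (0.00085), a partner of Noc3l in yeast, and the nucleolar protein gene Rrp1b (0.057) had differences closer to 0. Gnl3, the GTP-binding protein nucleostemin, was at 18.2, 20.4 and 20.5 FPKM in stiff and 16.3, 22.9 and 21.5 FPKM in soft libraries (-0.026), so that the soft range enclosed the stiff one.

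**Figure D3:**
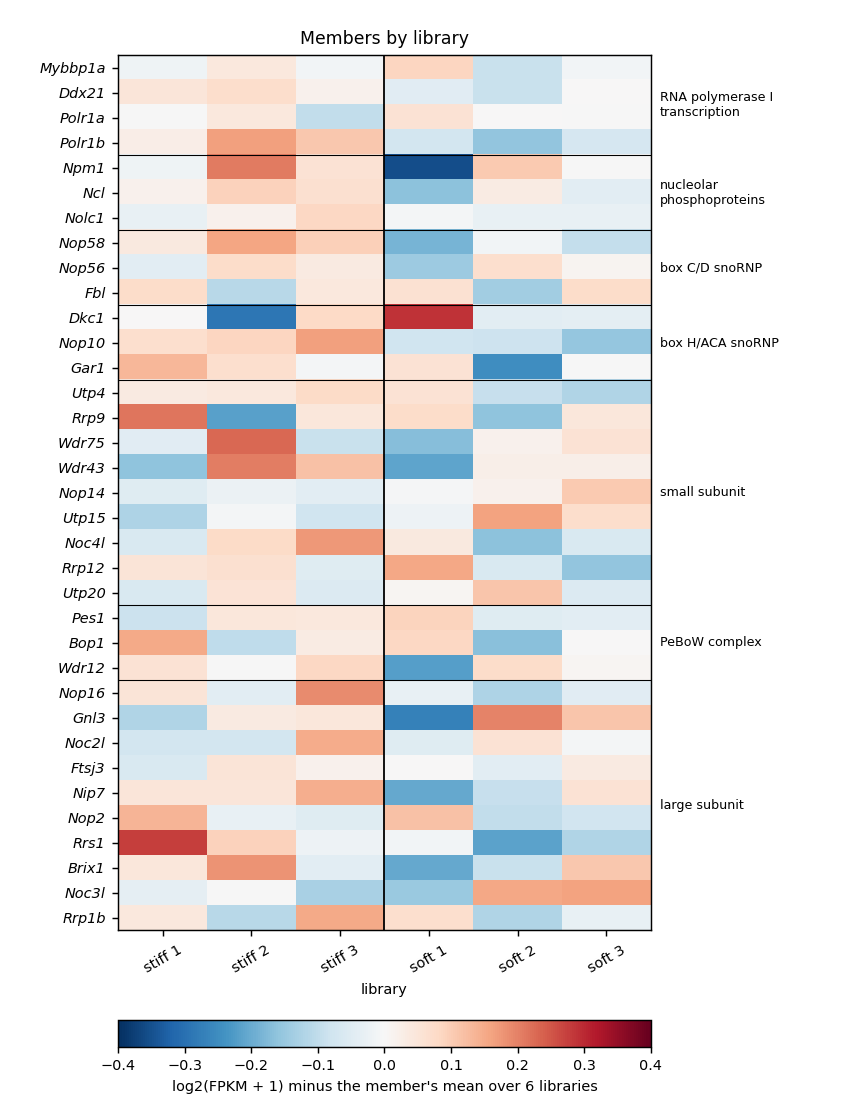
Heat map of the 35 tested members (rows, by role) in the 3 stiff and 3 soft libraries (columns); colour gives log2(FPKM + 1) minus the member's mean over the 6 libraries. Soft replicate 1 is low for Npm1 and Gnl3 and high for Dkc1, while Nop10 and Nop58 are higher in every stiff library than in any soft one.

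Deviations of single libraries within a gel were of the size of the differences between gels. A single library varies more than a mean of 3, so these sizes are not on the same scale. Against the mean of the other libraries of its gel, a member deviated by a median of 0.0892, 0.0814 and 0.0880 on the log2 scale in stiff replicates 1 to 3 and by 0.151, 0.129 and 0.0762 in soft replicates 1 to 3. All genes tested gave like values, of 0.144 in soft replicate 1. In that library Gnl3 (-0.42), Npm1 (-0.41), Noc3l (-0.31) and Wdr12 (-0.26) were low and Dkc1 (0.33) and Rrp12 (0.26) were high, which are the 6 members past 0.25, named after their values were seen. The median deviation of all members there was 0.0217, while their FPKM sum was the lowest of the 6 libraries. Without soft replicate 1 no member passed the limma test, where 1.25% of all genes did. At an unadjusted p under 0.05 there were then 3 higher members, where 8.85% of all genes were, and 2 lower ones, Noc3l and Utp15, where 6.34% of all genes were.

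Shorter members tended to have the higher differences. Across the 35 members gene length and the difference had a Spearman correlation of -0.401, and across all 12713 genes tested -0.146; genes are not independent replicates and share their libraries, so these are descriptions. The median gene length was 2438 bases in the members and 2190 bases in all genes tested. With the trend against length removed in each library, the members' median was 0.062 and 26 of 35 lay above 0.

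The other genes of the pathway, 118 in the table, gave like values. Of 116 tested, 0 passed by limma, and with voom 0 as well. At a limma p under 0.05 before adjustment 3 were higher, where 8.46% of all genes tested were, and 0 lower, where 6.95% were. Their median was 0.034, and 74 (63.8%) lay above 0, against 50.4% of all genes. With FPKM sums made equal 50 (43.1%) did, against 38.6%. The 3 were Rrp15 and Ddx18, of large subunit assembly, and Exosc8, a subunit of the RNA exosome that trims rRNA. Rrp15 averaged 9.57 ± 0.927 FPKM in stiff and 7.89 ± 0.242 FPKM in soft gel (SD, n = 3 each; 0.25; limma adjusted p = 0.218). Ddx18 averaged 14 ± 0.668 FPKM in stiff and 12.3 ± 0.295 FPKM in soft gel, and Exosc8 4.65 ± 0.559 and 3.69 ± 0.258 FPKM in stiff and soft gel (limma adjusted p = 0.265 and 0.285). Next by p were Rpf2 (0.22), Fcf1 (0.22) and, in the other direction, Taf1c (-0.17), a subunit of the factor that places Pol I on rRNA genes. By role, the median differences of these genes were 0.023 for 13 of Pol I transcription, 0.091 for 6 of the box C/D snoRNP, 0.099 for 2 of the box H/ACA snoRNP, 0.039 for 42 of the small subunit, 0.020 for 42 of the large subunit and 0.042 for 11 of the exosome.

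Myc, the transcription factor gene tied to this pathway, was at 17.7, 18.3 and 17.9 FPKM in stiff libraries and at 15.7, 13 and 13.7 FPKM in soft ones. The groups did not overlap. The difference of 0.33 did not pass over all genes (limma adjusted p = 0.107), while it did without soft replicate 1 (0.40, adjusted p = 0.0365) and with weighted libraries (adjusted p = 0.0133); over all the alternatives the adjusted p ran from 0.0133 to 0.298. Mtor, the growth kinase gene, was at 9.63 ± 0.478 FPKM in stiff and 10.5 ± 0.568 FPKM in soft gel (SD, n = 3 each; limma adjusted p = 0.510). Of 15 tested regulators of MYC and mTOR none passed by limma, where 1.43% of all genes tested did. Before adjustment 1 was higher in stiff gel at a limma p under 0.05, Myc, where 8.46% of all genes were. In the other direction 1 was lower, Tsc2 (-0.18), an inhibitor of mTOR signalling, where 6.95% were.

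Lists of part of the ribosome's own proteins and of cell division were set beside the biogenesis genes in the same fit. The 25 tested ribosomal protein genes had a median of 0.17 with 25 above 0, and 0 passed by limma. At an unadjusted p under 0.05, 16 were higher, where 8.46% of all genes were. With equal FPKM sums the median was 0.12 with 10 at that p, and after quantile normalization 0.087 with 3. Levels on this list were uneven. Rpl8 averaged 4.89 FPKM in stiff and 4.6 FPKM in soft gel, and Rps19 ran from 68 to 325.3 FPKM in stiff libraries. Whether the rows of some of these genes miss reads was not tested. Rplp0, the most abundant of them, averaged 1433.9 ± 46.3 FPKM in stiff and 1254.5 ± 33.6 FPKM in soft gel (SD, n = 3 each; limma adjusted p = 0.115). The 24 tested genes of mitosis had a median of 0.54, and 11 rose, where 1.01% of all genes did, among them the kinase genes Plk1, at 8.36 ± 0.0954 FPKM in stiff and 4.48 ± 0.393 FPKM in soft gel, and Cdk1, at 15.4 ± 1.10 and 9.43 ± 0.0556 FPKM in stiff and soft gel (SD, n = 3 each; limma adjusted p = 0.00816 for Plk1 and 0.0086 for Cdk1). The members' median was 0.057 in that fit. The differences between the lists, and what part cell division has in the members' values, were not tested.

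**Figure D4:**
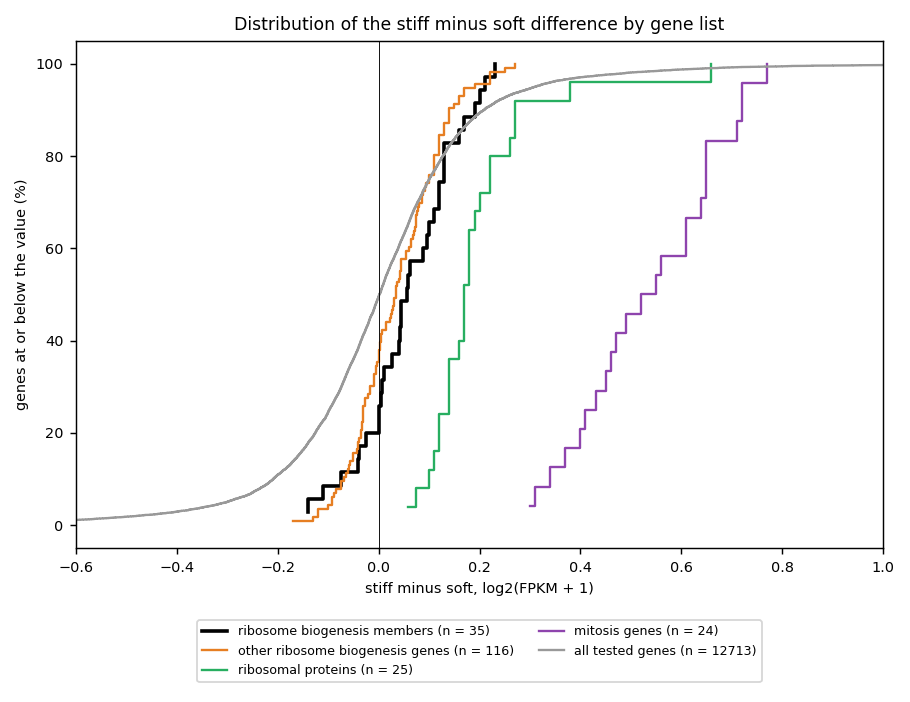
Cumulative share of genes (%) against the stiff minus soft difference on the log2(FPKM + 1) scale, for the 35 members, 116 other ribosome biogenesis genes, 25 ribosomal protein genes, 24 mitosis genes and all 12713 genes tested. The members' curve crosses the 50% line at 0.057, near that of all genes at 0.0013, while the ribosomal protein curve crosses at 0.17 and the mitosis curve at 0.54.

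Some biogenesis genes also carry snoRNA genes in their introns. The table lists 19 snoRNA rows on the same strand inside 5 members, namely Gnl3 (3 rows), Ncl (3), Nop56 (5), Nop58 (5) and Wdr43 (3). PolyA libraries sample such RNAs poorly, and the 19 rows together held 51, 27 and 45 reads in stiff libraries and 29, 38 and 67 in soft ones. The groups overlapped.

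The promoters of these genes were also searched, for motifs that some of them hold. RefSeq windows of assembly GRCr8, from 250 bases before to 50 bases after a gene's start, matched 34 of the 37 members by symbol, and 4 motifs were searched on both strands. The E-box CACGTG, which MYC with its partner MAX binds, occurred in 12 of 34 (35.3%), against 9.31% of the 9631 windows whose symbol was among the genes tested and 6.42% of all 33469 windows. The ETS core CCGGAAG occurred in 14 (41.2%, against 18.2% of the windows of tested genes), the GC box GGGCGG in 22 (64.7%, against 63.0%) and the NRF1 core GCATGCGC in 3 (8.82%, against 5.31%). Of the members, 6 held both an E-box and an ETS core and 14 held neither, and no 2 of the motifs shared bases. A match describes letters and does not show that a factor binds. The median difference was 0.0044 in the 11 tested members with an E-box and 0.095 in the 21 tested members without one. For the ETS core it was 0.066 in 12 with and 0.043 in 20 without. For the GC box it was 0.044 in 21 and 0.042 in 11, and for the NRF1 core 0.00085 in 3 and 0.044 in 29. Members share their libraries, and none of these contrasts was tested.

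The 13 E-boxes of the 12 members are printed because the E-box is the motif whose share in these promoters was the highest multiple of that in the windows of tested genes; capitals mark CACGTG, each with up to 10 bases on either side along the gene's strand, at GRCr8 positions.
Dkc1 (chrX:157751457-157751482, strand plus): cgtcccggcgCACGTGcgggccccac
Ebna1bp2 (chr5:137433554-137433579, strand plus): gtcttgctggCACGTGgagtggcagc
Fbl (chr1:92597418-92597443, strand plus): cgcttttttcCACGTGtgaaagcctg
Gnl3 (chr16:6219792-6219817, strand minus): ttccagttcgCACGTGgcgcccgaga
Mybbp1a (chr10:57555292-57555317, strand plus): agtttctacaCACGTGtgcgagcaca
Mybbp1a (chr10:57555447-57555472, strand plus): ctttcgagccCACGTGtttggttcag
Noc3l (chr1:245997675-245997700, strand minus): gagctctgggCACGTGtgtgtttcct
Nop2 (chr4:159618994-159619015, strand plus): tccccaagtgCACGTGgagcgg
Pes1 (chr14:83074286-83074311, strand plus): ctaagcggggCACGTGcggtaggaag
Rrp12 (chr1:250655300-250655325, strand minus): tgagaatacaCACGTGggttctgctg
Utp20 (chr7:25102961-25102986, strand minus): gcactagctaCACGTGagaaaaagca
Utp4 (chr19:51702206-51702231, strand plus): cgcacgcgcgCACGTGggaccggggc
Wdr75 (chr9:55395062-55395087, strand plus): actctttctaCACGTGttttaatttg
The E-box begins 184 bases before the gene's start in Dkc1, 50 bases before it in Pes1 and 25 bases before it in Gnl3 and Utp4. Mybbp1a holds a pair, 156 bases and 1 base before its start.

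The 250 bases before the start are printed for partners within one particle whose differences had different sizes, Nop10 (0.21) with Dkc1 (-0.14, and -0.026 without soft replicate 1) of the box H/ACA snoRNP and Nop58 (0.19) with Fbl (0.0044) of the box C/D snoRNP. Capitals mark matches to any of the 4 motifs.
Nop10 (chr3:119521005-119521254, strand plus): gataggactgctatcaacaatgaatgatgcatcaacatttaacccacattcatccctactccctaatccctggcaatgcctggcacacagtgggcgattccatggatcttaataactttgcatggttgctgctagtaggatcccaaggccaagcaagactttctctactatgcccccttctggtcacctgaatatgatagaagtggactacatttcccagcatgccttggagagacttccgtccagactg
Dkc1 (chrX:157751401-157751650, strand plus): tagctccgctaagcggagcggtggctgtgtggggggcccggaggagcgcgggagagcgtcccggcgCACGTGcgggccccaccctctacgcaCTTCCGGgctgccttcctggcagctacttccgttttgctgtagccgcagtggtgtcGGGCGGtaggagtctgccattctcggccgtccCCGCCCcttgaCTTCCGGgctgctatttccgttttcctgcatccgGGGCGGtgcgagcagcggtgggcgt
Nop58 (chr9:68614824-68615073, strand plus): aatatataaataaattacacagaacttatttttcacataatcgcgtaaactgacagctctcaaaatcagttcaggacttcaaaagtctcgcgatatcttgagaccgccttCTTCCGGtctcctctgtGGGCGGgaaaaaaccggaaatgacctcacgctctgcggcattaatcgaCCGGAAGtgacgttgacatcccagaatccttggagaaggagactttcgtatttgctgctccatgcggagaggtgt
Fbl (chr1:92597157-92597406, strand plus): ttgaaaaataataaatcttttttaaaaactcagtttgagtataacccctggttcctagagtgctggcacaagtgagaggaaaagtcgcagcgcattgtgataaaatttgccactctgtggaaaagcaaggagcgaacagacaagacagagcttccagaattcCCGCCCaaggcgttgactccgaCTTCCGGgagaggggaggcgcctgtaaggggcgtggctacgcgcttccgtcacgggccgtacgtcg
The Nop10 stretch held none of the 4 motifs. That of Dkc1 held an E-box, ETS cores and GC boxes, that of Nop58 ETS cores and a GC box and that of Fbl an ETS core and a GC box, and the E-box of Fbl lies after its start.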

How the data were processed

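Messenger RNA of 6 libraries was analysed, 3 from stiff and 3 from soft gel, grouped by the labels' titles. The authors deposited 1 table of FPKM for 33589 rows. Tools listed in the submitters' processing notes are HTSeq, Bowtie 0.12.9 and Cufflinks 2.1.1. The notes give mouse builds (GRCm38, mm10); identifiers in the table are those of rat, without a build. Multiplied by gene length, 100% of values were whole steps in each library (tolerance 0.0001), so reads were recovered, for depth and 1 alternative. For a gene of 1 kb, 3 reads are worth 0.179 to 0.201 FPKM.

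Members and lists were chosen with earlier results of these data known. All 37 members are named; values per library are given for the member with the smallest p and the most abundant one of each role, and for the 3 highest and 3 lowest differences. Other members so described, and genes named for a low or high value in 1 library, were added after their values were seen. In the other lists, the genes with the smallest p and the most abundant are named.

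The test was limma 3.58.1 (R 4.3.3) on log2(FPKM + 1), fitted on group alone with the variance trended on level, two-sided, adjusted by Benjamini-Hochberg over the 12713 genes that averaged 1 FPKM or more. Ranks of 3 against 3 cannot go below an exact p of 0.1. Differences on this scale understate changes of low genes. Alternatives changed the pseudocount, level filter, scaling, variance trend, library weights, replicate block, length trend or test (voom), or left out 1 library. The script was tested on simulated data. Of 100 genes given a log2 change of 1.0, 95% were found, and of 100 given 0.5, 51% were. With no change planted 0 genes were called. Changes as small as those of the members were not simulated. No pair of replicates was alike within sampling noise (chi-square per degree of freedom 3.57 or more). Genes listed but not matched by name were not analysed here. Erythroid and endothelial markers were at or under 1.05 and 5.58 FPKM summed per library.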

Additional observations from a re-analysis of the deposited data

How the results depend on the processing

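No member passed in any of the alternatives but one: with array weights 1 did, Nop10 (0.24). The other ribosome biogenesis genes gave 0 calls in all of them. An adjusted p of 0.1 also called 0 members, and the number of all genes it called was not counted. Over all genes the 182 calls became 92 without a level filter, 112 without the variance trend, 685 with array weights, 326 with voom and 26 to 159 with 1 library left out (159, 54 and 38 without soft replicates 1, 2 and 3, and 26, 46 and 37 without stiff replicates 1, 2 and 3). Members higher at an unadjusted p under 0.05 numbered 4 in the main fit. They numbered 2 without a filter, 1 at equal FPKM sums, 6 with the replicate block and 2 to 3 with 1 library left out. Lower ones numbered 0 in the main fit, 1 at equal sums, 2 with array weights and 0 to 2 with 1 library left out. Of all genes tested, 8.46% were higher and 6.95% lower in the main fit, and 5.41% and 10.8% at equal sums. With array weights 10.6% were lower. Without soft replicate 1, 8.85% were higher and 6.34% lower. For the other fits named here the share of all genes was not counted. The members' median of 0.057 was 0.012 at equal sums and 0.041 to 0.071 with 1 library left out. The median of all genes tested was 0.0013 in the main fit and -0.042 at equal sums. The members' median lay 0.055 above it in both, and 0.039 to 0.071 above it with 1 library left out. No member's name was repeated, so summing repeated rows changed nothing.

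With the replicate number as a block, 105 genes and 0 members passed. Same-numbered libraries' deviations from their group means correlated at 0.0552, 0.116 and -0.0785, so the numbers were not taken as pairs, and stiff replicate 3 correlated best with soft replicate 1 (0.137).

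The sign changed in at least 1 alternative in 17 of 35 members, none of which had passed. At equal FPKM sums these were Mybbp1a (-0.037), Nolc1 (-0.0032), Fbl (-0.043), Nop56 (-0.0037), Rrp9 (-0.020), Rrp12 (-0.00066), Nop2 (-0.0062), Noc2l (-0.046) and Ftsj3 (-0.040), where the whole table shifted to a median of -0.042. After quantile normalization they were Mybbp1a (-0.0038), Fbl (-0.0033) and Noc2l (-0.0076). With array weights they were Fbl (-0.0063), Nop56 (-0.0096), Wdr43 (-0.0069), Wdr75 (-0.033), Pes1 (0.014), Noc2l (-0.012) and Ftsj3 (-0.028). With voom they were Fbl (-0.0016) and Noc2l (-0.0025), and with the length trend removed Polr1a (0.0056), Fbl (-0.036), Rrp9 (-0.0018), Utp20 (0.038) and Noc2l (-0.0056). With 1 library left out the values ran from -0.069 to 0.0014 for Polr1a, -0.033 to 0.056 for Mybbp1a, -0.065 to 0.061 for Fbl, -0.020 to 0.089 for Nop56, -0.075 to 0.14 for Rrp9, -0.080 to 0.0022 for Utp20, -0.038 to 0.12 for Wdr75, -0.026 to 0.13 for Rrp12, -0.011 to 0.12 for Bop1, -0.023 to 0.044 for Pes1, -0.016 to 0.11 for Nop2, -0.074 to 0.040 for Noc2l, -0.17 to 0.067 for Gnl3, -0.018 to 0.039 for Ftsj3 and -0.0061 to 0.13 for Rrp1b. With array weights Npm1 was 0.058, Dkc1 -0.019 and Brix1 7.1e-05. The cause was not tested. Depth limits Gar1 (134 reads in a library) and the 2 members under the filter most.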
